A study of Homo sapiens with 4 samples.

Results

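The genes of fatty acid oxidation and ketone metabolism were followed in HEK293 cells kept at a high or a low glucose concentration. The set held 35 genes, chosen by name from the known pathway. Of these, 33 had a probe set assigned to 1 gene, 69 such probe sets in all among 41091 on the array. After a filter on dim probe sets, set at a mean signal of 32.9, 31 genes were measured among 12242. CPT1B and ACAD11 had no probe set for 1 gene and were not analysed here. BDH1 and PPARGC1A were measured only below the filter.

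HEK293 is an established human embryonic kidney cell line, and each group was grown in DMEM with fetal calf serum for 7 days. The high glucose group received 450 mg/dl glucose and the low glucose group 100 mg/dl, with 2 arrays in each group. Each array was hybridised with biotin-labelled cRNA from total RNA, and the labels call the cultures biological replicates. No label says whether they were grown independently, so p-values measure only the spread between these samples.

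Fatty acids are burned in the mitochondrial matrix by beta-oxidation, a spiral that shortens an acyl-CoA chain and releases acetyl-CoA at each turn. Long chains enter through the carnitine shuttle, and the electrons taken from them pass through electron transfer flavoprotein to the respiratory chain. Peroxisomes run a parallel spiral for very long and branched chains, whose first step is an oxidase that makes hydrogen peroxide. Ketone bodies are made from acetyl-CoA in the liver and used for energy by other tissues, kidney included. PPAR-alpha, PPAR-delta and the coactivator PGC-1alpha (PPARGC1A) are known to switch on many of these genes.

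The arrays had equal trimmed mean signals and medians of 33.3 to 38.7. Of the HEK293 markers listed, KRT8, KRT18, VIM, CDH2, WT1 and NEFL lay between 258 and 11041 on every array, while INA and NEFM were below the filter. PAX2, LHX1 and EYA1 were dim, between 21.0 and 75.1. KRT8, KRT18, CDH2 and WT1 were higher in high glucose, and VIM lower. LHX1 was also called higher and EYA1 lower, but each passed the filter of 32.9 only through its brighter group. LHX1 read 32.5 and 21.0 in low glucose, and EYA1 had a mean of 30.5 in high glucose. Of 6 fibroblast markers, COL1A1 and COL3A1 were past the filter and higher in high glucose, and DCN, LUM, POSTN and COL1A2 were below it. Of 6 blood and endothelial markers, PECAM1 was past the filter and did not pass the test, and of 6 hepatocyte and adipocyte markers none was past the filter. The 24 probe sets for poly-A transcripts added before labelling were 3.84-fold higher in high glucose (median difference 1.94 on the log2 scale). The 6 probe sets for ribosomal RNA were 3.31-fold higher at the median (difference 1.73). The part of these controls, and that of the markers, in the gene differences was not tested.

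Of the 31 measured genes, 18 rose in high glucose, 3 fell and 10 did not pass the test. The test was limma on log2 signals, with p-values adjusted by the Benjamini-Hochberg method over the 12242 genes and a threshold of 0.05. These are levels in whole cultures, in which fewer cells of a kind and less RNA per cell cannot be told apart. Over all genes tested, 24.3% rose and 33.3% fell, 57.6% in either direction. Every count of a step or list below is to be read beside these shares. The median log2 difference of the measured members, high minus low glucose, was 0.42, against -0.10 for all genes. In 21 members both high glucose arrays lay above both low glucose arrays, and in 4 they lay below, against a background of 33.6% and 46.2% of all genes, 79.8% in either direction. The split depended on the scaling of the arrays. After median centring the share of higher genes among all called genes moved from 42.1% to 58.8% and the median of all genes from -0.10 to 0.07, and 21 members rose and 2 fell. In the values below, a level is a signal on the linear scale and a difference is in log2 units with its standard error.

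**Figure D1:**
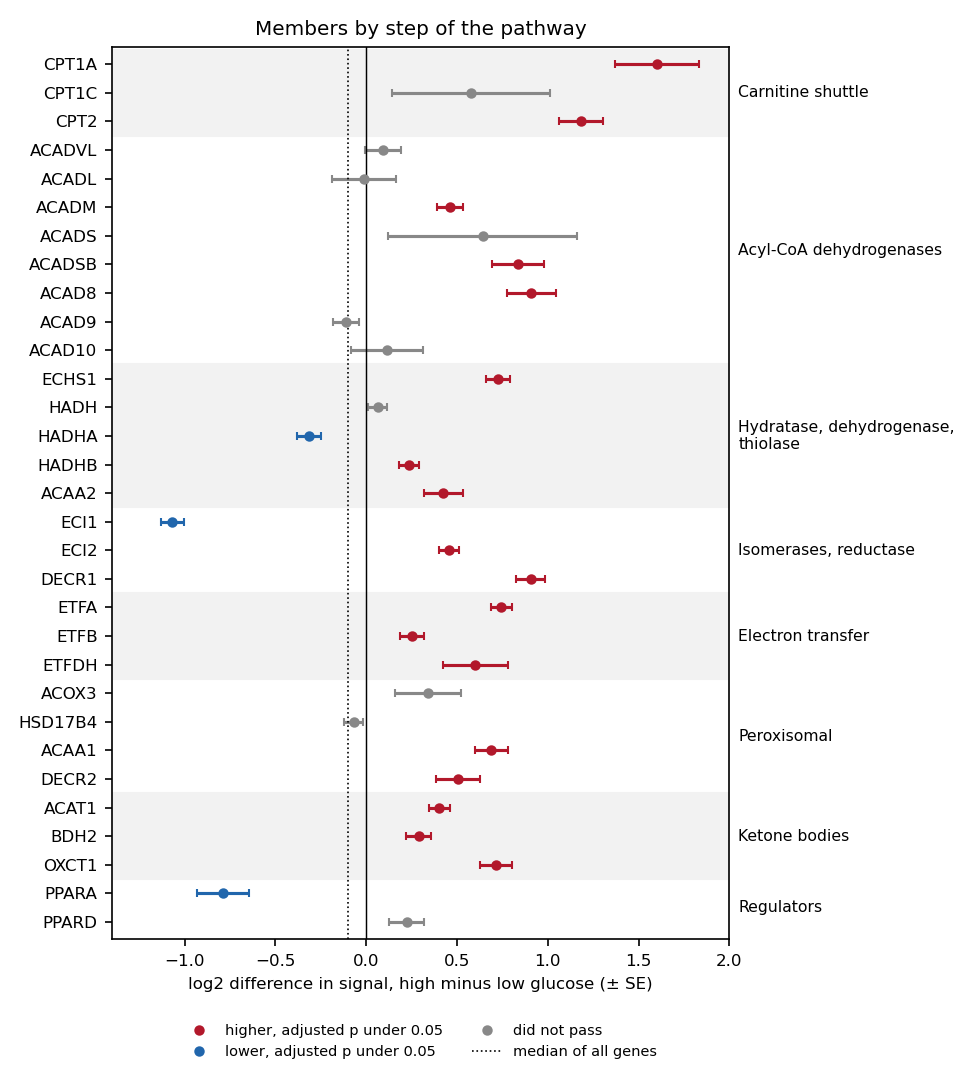
Log2 difference in signal, high minus low glucose, of the 31 measured members grouped by step of the pathway; bars are standard errors from limma (n = 2 arrays per group), colours give the call and the dotted line is the median of all genes at -0.10. CPT1A and CPT2 stand farthest to the right, at 1.60 and 1.18, and ECI1 and PPARA farthest to the left, at -1.07 and -0.79.

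The carnitine shuttle held the members with the widest rises. CPT1A, the outer membrane carnitine palmitoyltransferase that controls entry of long chains, had signals of 281 and 282 at high glucose against 120.2 and 71.7 at low glucose. It rose 3.03-fold (1.60 ± 0.23, limma adjusted p = 7.9e-04). The high glucose arrays were nearly equal, while the low glucose arrays differed from each other, and the difference was 1.23 without low glucose replicate 2 and 1.97 without low glucose replicate 1. A second CPT1A probe set past the filter was dim, with 41.8 and 38.6 in high and 35.5 and 23.0 in low glucose, and did not pass (0.49 ± 0.34). With the mean of the probe sets CPT1A still rose, by 1.04.

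CPT2, the inner membrane enzyme that rebuilds acyl-CoA in the matrix, had signals of 409 and 405 at high glucose against 199 and 162 at low glucose. It rose 2.27-fold (1.18 ± 0.12, adjusted p = 1.4e-04). Its other probe set read 299 and 314 against 112 and 89.4, and rose by 1.62 ± 0.15, so the groups were apart in both. CPT1C, the brain form that resides in the endoplasmic reticulum, read 46.0 and 91.2 in high and 61.0 and 31.0 in low glucose. Its arrays overlapped and it did not pass (0.58 ± 0.43). SLC25A20, the carrier that works between CPT1 and CPT2, lies outside the set. SLC25A20 did not pass (0.32 ± 0.13), although its arrays did not overlap.

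The sequences before the start sites of these genes, and of the genes that fell or rose against their partner, are given for reference from RefSeq promoter windows of GRCh38.p14. Windows of 300 bases, 250 before and 50 after the start, were found for 29 of the 35 genes, 41 windows in all. Searched on both strands, the PPAR element, a direct repeat of AGGTCA with 1 base of any kind between, was in 0 of the 41 windows and in 0.0228% of all 35116 windows. A single AGGTCA was in 1 gene, ACAD10, and in 13.8% of all windows. The ERR element TCAAGGTCA was in 0 member windows (0.353% of all) and the ATF4 core TGATGCAA in 0 (0.866% of all). The E-box CACGTG was in ACAD9 and PPARGC1A (7.26% of all windows). The GC box GGGCGG was in 25 genes, 73.2% of the member windows against 45.0% of all windows, a set that includes non-coding genes. A match is a description of the letters and not a site.

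The 100 bases just before the start are shown for CPT1A (chr11:68844278-68844377, minus strand), CPT2 (chr1:53196724-53196823, plus strand), ECI1 (chr16:2251588-2251687, minus strand) and PPARA (chr22:46150688-46150787, plus strand, the second of its starts). Capitals mark GGGCGG on either strand. In the 100 bases shown, CPT1A has no capitals, and CPT2, ECI1 and PPARA have 2 GC boxes each. The longer windows of CPT2, ECI1 and PPARA hold further GC boxes that are not shown. CPT1A and CPT2 rose and ECI1 and PPARA fell, and a link between GC boxes and direction was not tested.
CPT1A: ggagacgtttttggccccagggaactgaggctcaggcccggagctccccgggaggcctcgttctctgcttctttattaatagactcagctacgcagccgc
CPT2: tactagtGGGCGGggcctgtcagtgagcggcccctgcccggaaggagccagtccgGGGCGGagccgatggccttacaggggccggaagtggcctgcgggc
ECI1: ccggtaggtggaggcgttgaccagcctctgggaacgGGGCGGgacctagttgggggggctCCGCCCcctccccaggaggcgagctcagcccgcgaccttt
PPARA: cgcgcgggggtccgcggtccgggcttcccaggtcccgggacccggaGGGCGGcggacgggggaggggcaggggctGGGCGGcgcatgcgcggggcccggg

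**Figure D2:**
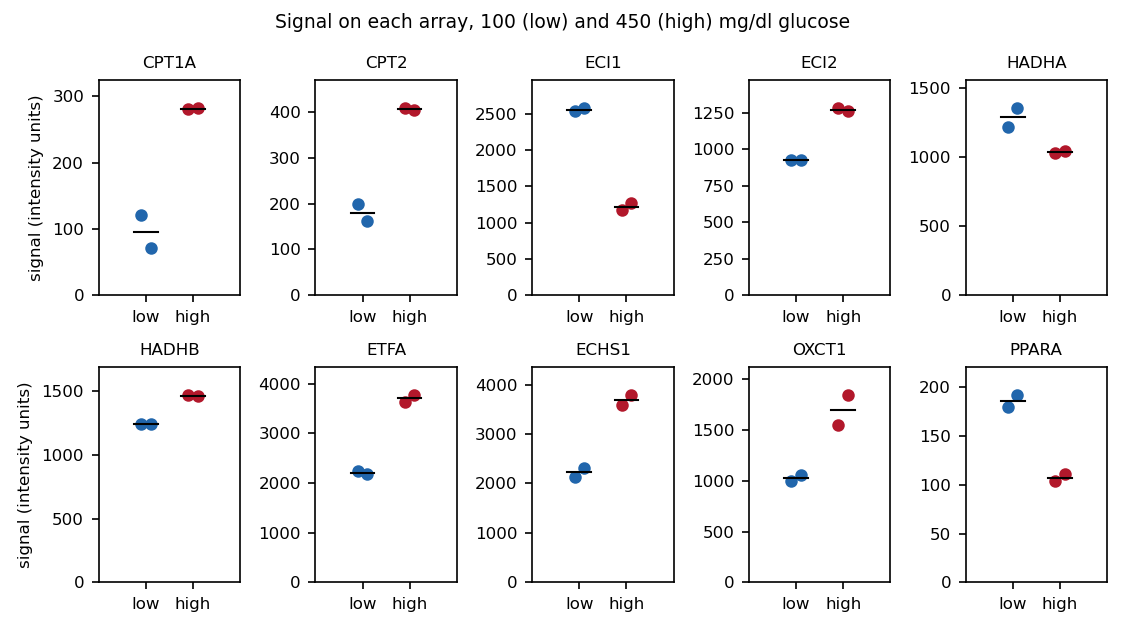
Signal intensity on each of the 4 arrays for 10 members, low glucose in blue and high glucose in red, with the group mean as a line and each axis starting at 0. The arrays of each group lie apart in all 10 panels, with ECI1, HADHA and PPARA lower and the other 7 higher in high glucose. The 10 were picked from the called members, and the arrays lay apart in 79.8% of all genes tested.

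Of the acyl-CoA dehydrogenases, which take the first step of each turn and differ in the chain they accept, 3 of 8 measured rose and 5 did not pass. The 3 were ACADM, for medium chains, ACADSB, for short branched chains from isoleucine, and ACAD8, for isobutyryl-CoA from valine. ACAD8 read 216 and 206 in high glucose against 113 and 111 in low glucose and rose 1.88-fold (0.91 ± 0.13, adjusted p = 8.3e-04). ACADSB read 280.5 and 231 against 135 and 150.3 and rose 1.79-fold (0.84 ± 0.14, adjusted p = 0.0018), and its second probe set rose by 1.06 ± 0.29. ACADM read 585 and 608 against 422 and 444 and rose 1.38-fold (0.46 ± 0.07, adjusted p = 0.0011). So 2 of the 3 that rose act on branched chains from amino acids, while other genes of that breakdown, given below, differed in direction.

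The long-chain enzymes did not pass. ACADVL, for very long chains, read 1011 and 830.3 in high and 822 and 897 in low glucose (0.09 ± 0.10), and its arrays overlapped. ACADL, for long chains, read 93.6 and 95.9 against 92.1 and 99.2 (-0.01 ± 0.18). ACAD9, which is also an assembly factor of respiratory complex I, stood at -0.11 ± 0.07 and ACAD10 at 0.11 ± 0.20. ACADS, for short chains, read 92.8 and 101 at high glucose against 118 and 32.5 at low glucose, so that 1 low glucose array decided its value. Its difference was 0.64 ± 0.52 over all arrays, 1.57 without low glucose replicate 1 (limma adjusted p = 0.0027) and -0.29 without low glucose replicate 2 (adjusted p = 0.31), with adjusted p between 0.0027 and 0.52 over its alternatives.

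The enzymes that complete each turn went in different directions. ECHS1, the short-chain enoyl-CoA hydratase, read 3587 and 3783 in high glucose against 2139 and 2316 in low glucose and rose 1.65-fold (0.73 ± 0.07, adjusted p = 8.1e-05). HADH, the hydroxyacyl-CoA dehydrogenase for shorter chains, read 1472 and 1489 against 1416 and 1419. It did not pass (0.06 ± 0.05), although its arrays did not overlap, and its other probe sets stood at 0.19 and -0.03. After median centring HADH was called higher (0.23). ACAA2, the matrix thiolase, read 452 and 549 against 388 and 356 and rose 1.34-fold in its brightest probe set (0.42 ± 0.11, adjusted p = 0.012). A dimmer ACAA2 probe set fell (-0.78 ± 0.26) and another did not pass (0.04 ± 0.26). The mean of the 3 stood at -0.11 and did not pass. The ACAA2 rise was also lost without _x_at and _s_at probe sets (0.04), with no intensity trend and without high glucose replicate 2 (0.28).

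HADHA and HADHB, the alpha and beta subunits of the mitochondrial trifunctional protein, changed in opposite directions. HADHB read 1469.5 and 1463 in high glucose against 1243 and 1246 in low glucose and rose 1.18-fold (0.24 ± 0.05, adjusted p = 0.0067). HADHA read 1029 and 1042 against 1221 and 1356 and fell 1.24-fold (-0.31 ± 0.07, adjusted p = 0.0051). Of the other HADHA probe sets, 1 fell by more, with 555 and 559.8 against 816 and 842 (-0.57 ± 0.06), and 1 did not pass (-0.02 ± 0.07). After median centring HADHA stood at -0.14 and did not pass, while HADHB rose by 0.41. Without _x_at and _s_at probe sets HADHA fell by 0.57.

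These genes lie head to head, with start sites 307 bases apart, and their promoter windows share 194 bases (chr2:26244689-26244882 of GRCh38.p14, RefSeq, printed on the plus strand). The shared stretch is shown because the subunits moved apart in signal with this sequence in common. It has a GC content of 68.6% and 1 GC box, in capitals.
HADHA and HADHB: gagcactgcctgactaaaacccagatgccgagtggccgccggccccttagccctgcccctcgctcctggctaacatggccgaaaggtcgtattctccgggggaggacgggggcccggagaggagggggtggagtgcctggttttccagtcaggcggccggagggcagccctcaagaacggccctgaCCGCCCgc

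The auxiliary enzymes, which move or reduce double bonds so that unsaturated fatty acids can pass through the spiral, also divided. ECI1, the matrix enoyl-CoA isomerase, read 1170.1 and 1272 in high glucose against 2537 and 2580.02 in low glucose. It fell 2.10-fold (-1.07 ± 0.06, adjusted p = 1.2e-05). ECI2, an isomerase found in peroxisomes and mitochondria, read 1283 and 1259.7 against 928 and 926 and rose 1.37-fold (0.46 ± 0.05, adjusted p = 3.1e-04). DECR1, the mitochondrial dienoyl-CoA reductase, read 493 and 507 against 267 and 266 and rose 1.87-fold (0.91 ± 0.08, adjusted p = 7.1e-05). Each of the 3 has 1 probe set, and each kept its direction and its call under every alternative in which it was measured.

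The genes that carry electrons from the dehydrogenases to ubiquinone all rose. ETFA, the alpha subunit of electron transfer flavoprotein, read 3638 and 3763 in high glucose against 2247 and 2171 in low glucose and rose 1.68-fold (0.74 ± 0.06, adjusted p = 4.1e-05). ETFB, the beta subunit, read 805 and 810.1 against 706 and 651 and rose 1.19-fold (0.25 ± 0.07, adjusted p = 0.013). ETFDH, the ubiquinone oxidoreductase that accepts these electrons, read 177 and 212 against 146 and 111 and rose 1.52-fold (0.60 ± 0.18, adjusted p = 0.022). The second ETFDH probe set rose by 0.77 ± 0.17. The calls of ETFB and ETFDH were near the threshold: ETFB lost its call without high glucose replicate 1 or 2 or low glucose replicate 2 (adjusted p = 0.055, 0.061 and 0.062), and ETFDH without high glucose replicate 2 or low glucose replicate 2 (adjusted p = 0.13 and 0.096), and both lost it with no intensity trend. Over the alternatives the highest adjusted p was 0.062 for ETFB and 0.13 for ETFDH.

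Of the 4 peroxisomal members, 2 rose in their brightest probe sets and 2 did not pass. None fell by limma, and 0 were lower at an unadjusted p under 0.05. DECR2, the peroxisomal dienoyl-CoA reductase, read 241 and 243 in high glucose against 181 and 159.9 in low glucose and rose 1.42-fold (0.51 ± 0.12, adjusted p = 0.0088). ACAA1, the peroxisomal thiolase, read 469.7 and 510 against 319 and 289 and rose 1.61-fold (0.69 ± 0.09, adjusted p = 4.9e-04). The other ACAA1 probe set went the other way, with 214 and 209.7 against 289 and 348, and fell by 0.58 ± 0.12 log2 units. The names of both ACAA1 probe sets mark designs that can match several transcripts. The direction of ACAA1 therefore differed between its probe sets, and their mean stood at 0.05 and did not pass.

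HSD17B4, the multifunctional enzyme that carries out the hydratase and dehydrogenase steps, read 1366 and 1376 in high against 1435 and 1444 in low glucose. It did not pass (-0.07 ± 0.05), although its arrays did not overlap, and it turned to 0.10 after median centring. ACOX3, an acyl-CoA oxidase for branched chains, read 99.7 and 109.7 against 80.7 and 84.3 and did not pass (0.34 ± 0.18). Its other probe set stood at -0.51 ± 0.30. ACOX3 was called higher after median centring (0.51) and with no intensity trend, which made 3 of the 4 peroxisomal members higher.

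**Figure D3:**
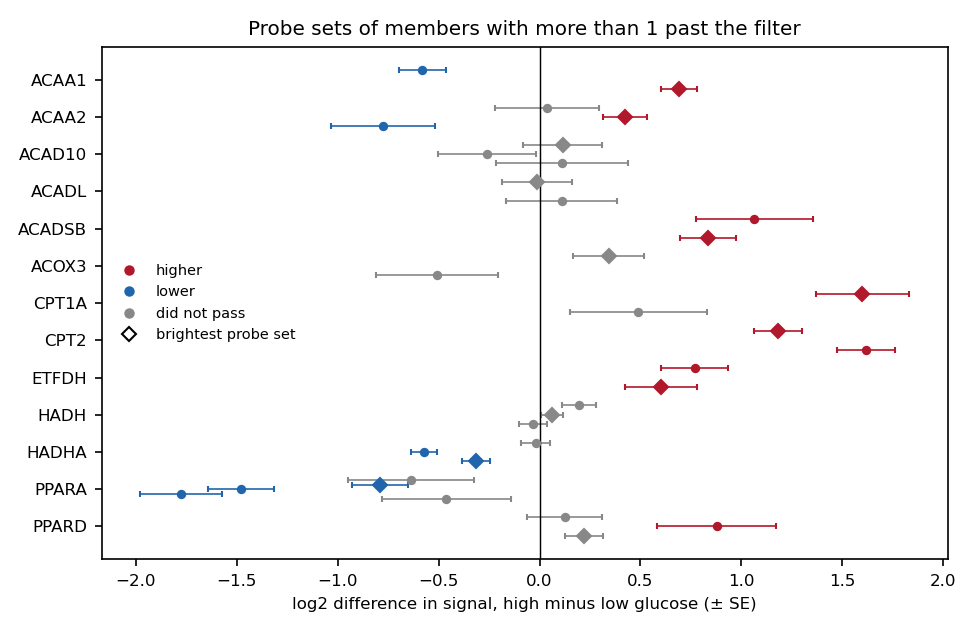
Log2 difference, high minus low glucose, of each probe set past the filter for the 13 members with more than 1; bars are standard errors from limma, diamonds mark the brightest probe set and colours give the call. ACAA1 and ACAA2 have probe sets called in opposite directions, while all 5 of PPARA lie left of 0.

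Of the 20 measured mitochondrial members 12 rose, 2 fell and 6 did not pass, with a median difference of 0.44. The 4 peroxisomal members had a median of 0.42 in their brightest probe sets, close to the mitochondrial value. The peroxisomal value rests on few genes and on the choice of probe set, since with the mean of a gene's probe sets it turned to -0.01 with 1 gene rising, while the mitochondrial median was 0.36 with 11 rising. With ECI2 counted as peroxisomal, the 5 genes had a median of 0.46 and 3 rose. No test of the difference between the compartments was made.

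The wider peroxisomal machinery was read from lists of genes outside the set. Of 11 measured peroxisomal enzymes and carriers, 7 rose and 2 fell, with a median of 0.34. HACL1, which cleaves hydroxyacyl-CoA in alpha-oxidation, rose 2.19-fold, from 228 and 261 to 507 and 563 (1.13 ± 0.10, adjusted p = 7.9e-05). ABCD3, a transporter of branched acyl-CoA into peroxisomes, rose 1.76-fold and PECR, an enoyl-CoA reductase, 1.65-fold, a PECR call lost with the mean of its probe sets (0.28). ACOT8, a peroxisomal thioesterase, fell 1.83-fold in its brightest probe set, while the mean of its probe sets stood at 0.10 and did not pass. Of 11 measured peroxins, which build the organelle, 7 rose and 1 fell, with a median of 0.33. PEX3 rose by 0.68, PEX26 by 0.72 and PEX5, the import receptor, by 0.36, while PEX11A, a division factor, fell by 0.51. With the mean of probe sets PEX5 stood at 0.20 and PEX11A at -0.21, and neither passed. PEX11A also lost its call after median centring (-0.34).

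**Figure D4:**
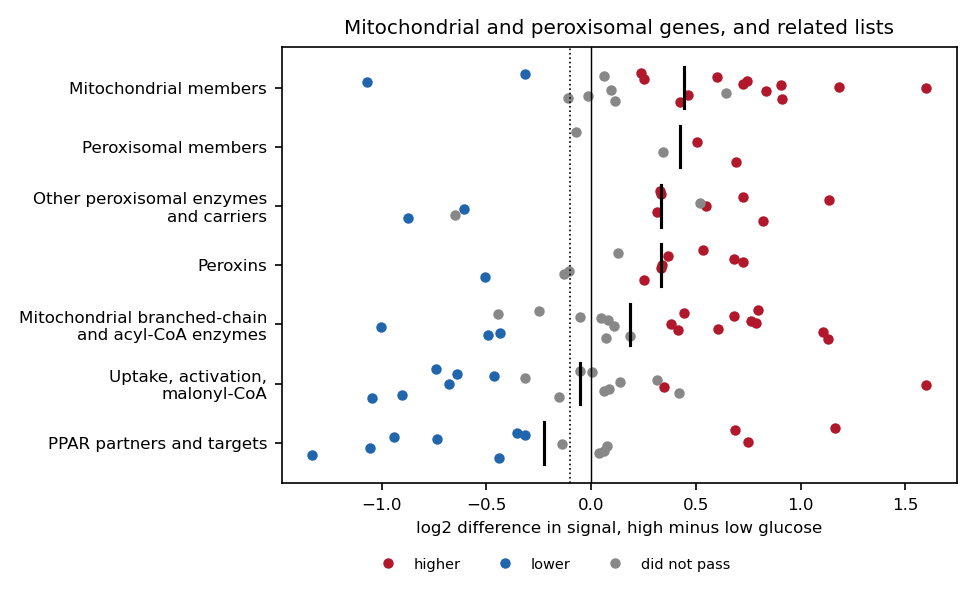
Log2 difference, high minus low glucose, of each measured gene in 7 lists; points are genes coloured by call, thick lines are list medians, and the dotted line is the median of all genes at -0.10. The mitochondrial and peroxisomal members (medians 0.44 and 0.42), the other peroxisomal genes (0.34) and the peroxins (0.33) lie mostly right of 0. The list labelled PPAR partners and targets (-0.23), which also holds related regulators, has 8 genes left of 0 and 6 right.

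All 3 measured ketone genes rose. OXCT1, the transferase that commits acetoacetate to oxidation, read 1549 and 1843 in high glucose against 999.7 and 1060.2 in low glucose and rose 1.64-fold (0.71 ± 0.09, adjusted p = 3.3e-04). ACAT1, the mitochondrial acetoacetyl-CoA thiolase, read 1809.9 and 1791 against 1407 and 1317 and rose 1.32-fold (0.40 ± 0.06, adjusted p = 8.1e-04). BDH2, a cytosolic hydroxybutyrate dehydrogenase, read 616 and 656 against 524 and 517 and rose 1.22-fold (0.29 ± 0.07, adjusted p = 0.0085), a call lost without high glucose replicate 2 (adjusted p = 0.062, the highest over its alternatives). BDH1, the mitochondrial hydroxybutyrate dehydrogenase, was below the filter, with its 2 probe sets between 2.24 and 18.3 in high and between 3.82 and 26.7 in low glucose.

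Among ketone genes outside the set, 3 were measured. SLC16A7, a monocarboxylate transporter, rose 2.28-fold in its brightest probe set, a call lost with the mean of its probe sets (0.38, adjusted p = 0.088). AACS, the cytosolic acetoacetyl-CoA synthetase, rose 1.18-fold, a call lost without high glucose replicate 2 (adjusted p = 0.099, the highest over its alternatives) and with no intensity trend. ACAT2, the cytosolic thiolase that feeds sterol synthesis, fell 1.79-fold, from 1964 and 2073 to 1119 and 1129.8 (-0.84 ± 0.06, adjusted p = 2.2e-05). The mitochondrial thiolase ACAT1 rose in the same arrays.

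Of the 3 regulators, 1 fell, 1 did not pass and 1 was below the filter. PPARA, the nuclear receptor known for induction of fatty acid oxidation, read 104 and 110.4 in high glucose against 179 and 191 in low glucose and fell 1.73-fold (-0.79 ± 0.14, adjusted p = 0.0024). Of its other probe sets, 1 read 65.3 and 61.4 against 178 and 175 and fell by 1.48 ± 0.16, and 1 read 39.9 and 46.1 against 138 and 156 and fell by 1.78 ± 0.20. The remaining PPARA probe sets past the filter stood at -0.64 and -0.46 and did not pass, so all 5 were lower in high glucose and 3 were called.

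PPARD, which encodes PPAR-delta, read 287 and 311 against 259 and 253 in its brightest probe set and did not pass (0.22 ± 0.10), while a dimmer probe set rose by 0.88 ± 0.29. It was called higher after quantile normalization (0.28) and after median centring (0.39). PPARGC1A was below the filter, and its brighter probe set read 17.2 and 22.8 in high and 37.8 and 27.6 in low glucose.

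A list of partners and targets of these factors also held related metabolic regulators. Of its 14 measured genes, 3 rose and 7 fell, where 24.3% of all genes rose and 33.3% fell. The median was -0.23, against -0.10 for all genes. LPIN1, a phosphatidate phosphatase and coactivator, fell 2.51-fold, from 636 and 558 to 238 and 235 (-1.33 ± 0.09, adjusted p = 2.5e-05). RXRB, a dimer partner of PPARs, fell 1.92-fold, and PLIN2, a lipid droplet coat protein, fell 2.07-fold. ESRRA, RXRA, SIRT1 and SIRT3 also fell, while PPARGC1B, a coactivator, rose (0.75 ± 0.16, limma adjusted p = 0.0051). The targets PDK4 and PLIN5 did not pass (0.06 ± 0.23 and 0.08 ± 0.29). Both were dim, PDK4 between 56.9 and 64.8 and PLIN5 between 54.9 and 91.2, where the filter was 32.9. TFAM, the mitochondrial DNA transcription factor, rose 1.61-fold, a call lost without probe sets that can match several transcripts (0.19, adjusted p = 0.23). TXNIP, a glucose-induced thioredoxin-binding protein, rose 2.24-fold in its brightest probe set (1.16), and by 1.78 with the mean of its probe sets.

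The steps before the shuttle and its control, with SLC25A20 of the shuttle itself, were read from a further list. Of 17 measured genes of fatty acid uptake, activation and malonyl-CoA control, 2 rose and 6 fell, with a median of -0.05. The share that fell was near the 33.3% of all genes, while 24.3% of all genes rose. The median of all genes was -0.10. FABP5, a fatty acid binding protein, rose 3.03-fold, from 1157 on each low glucose array to 3495 and 3508 (1.60 ± 0.05, adjusted p = 1.3e-06). DBI, the acyl-CoA binding protein, rose 1.27-fold, a call lost with the mean of its probe sets (0.14). ACACB, the carboxylase whose malonyl-CoA inhibits CPT1, fell 2.06-fold, from 240.2 and 277 to 119 and 131 (-1.04 ± 0.14, adjusted p = 4.7e-04). With the mean of its probe sets ACACB still fell, at -0.43. MLYCD, the decarboxylase that breaks down malonyl-CoA, also fell, 1.60-fold (-0.68 ± 0.16, limma adjusted p = 0.0091). Malonyl-CoA itself was not measured. ACSF2, an acyl-CoA synthetase, fell 1.87-fold.

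Of 21 measured genes of branched-chain and other acyl-CoA metabolism, most of them mitochondrial, 10 rose and 3 fell, with a median of 0.18. Over all genes 24.3% rose and 33.3% fell. ACOT13, a thioesterase, rose 2.19-fold, CBR4, a reductase, 2.16-fold, HSD17B10, a hydroxyacyl-CoA dehydrogenase of isoleucine breakdown, 1.70-fold and MCCC2, a subunit of leucine breakdown, 1.60-fold. ECHDC2, an enoyl-CoA hydratase domain protein, fell 2.00-fold, from 813 and 809 to 407 and 401 (adjusted p = 1.8e-05). The branched-chain dehydrogenase subunits differed in direction. BCKDHA fell (-0.49 ± 0.11, limma adjusted p = 0.0057), as did BCKDHB (-0.43 ± 0.13, adjusted p = 0.024), while DBT rose (0.41 ± 0.08, adjusted p = 0.0041). IVD, MCCC1 and PCCA did not pass (0.05, -0.05 and -0.25).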

How the data were processed

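The authors deposited intensities on a linear scale for each probe set. Their software was GCOS, per the submitters' processing notes, with no version named. Tested on the values, the 2% trimmed mean was equal on all arrays, so changes shared by most transcripts cannot be seen. The number of arrays limits the precision.

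Of 54675 probe sets, 62 controls were left out. Platform annotation named 41091 probe sets for 1 gene, and 41037 matched RefSeq (GRCh38.p14) by identifier. Signals were log2-transformed. Probe sets at or above the median mean signal (32.9) were kept, 27307 in all, and each gene was read from its brightest probe set. The glucose groups were set against each other by limma 3.58.1 under R 4.3.3 (lmFit, eBayes with intensity trend, no covariate). P-values are two-sided. Single probe sets were fitted over all 27307.

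The members and lists were chosen with earlier results of these data known. Each listed member was reported, and of each other list the 4 genes with the smallest p and those called with a change of at least 2-fold. SLC25A20, MLYCD, PDK4 and PLIN5 were added after their values were seen. So were BCKDHA, BCKDHB, DBT, IVD, MCCC1, PCCA, PPARGC1B, ESRRA, RXRA, SIRT1 and SIRT3. The genes whose promoters are shown were chosen after their values were seen. Alternatives covered normalization, filter, a pseudocount of 16, trend, probe sets, replicate block and leaving out each array.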

Additional observations from a re-analysis of the deposited data

How the results depend on the processing

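Of the 21 members called, 15 kept their direction and call under every alternative in which they were measured, and of the 10 not called, 1 did. With no intensity trend 9 mitochondrial and 3 peroxisomal members were higher. The share of called genes that were higher moved with centring, as given above. After median centring the mitochondrial median was 0.61 with 1 member lower, and the peroxisomal median 0.59; the peroxisomal median was 0.53 with quantile normalization and 0.51 with cyclic loess. With the stricter filter at the 75th percentile the medians were 0.25 and 0.51. With the mean of probe sets they were 0.36 and -0.0077, with 1 peroxisomal member higher. Without _x_at and _s_at probe sets, which leaves 15 mitochondrial and 2 peroxisomal members, they were 0.60 and 0.14, with 1 mitochondrial member lower and 0 peroxisomal members higher. Leaving out 1 array gave mitochondrial medians of 0.30 to 0.53 and peroxisomal medians of 0.39 to 0.46. With 1 sample left in a group, that sample is assumed to vary like the others.

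The median of all genes reversed to 0.067 after median centring. ACADL, near 0, reversed to 0.10 with quantile normalization, 0.16 with median centring, 0.10 with cyclic loess, 0.048 with the mean of probe sets, and 0.0048 and 0.041 without high glucose replicate 1 and low glucose replicate 2. Leaving out each array in turn moved it between -0.066 and 0.041. After median centring ACAD9 stood at 0.059 and HSD17B4 at 0.10. With the mean of probe sets ACAD10 stood at -0.013, ACAA2 at -0.11, ACOX3 at -0.083 and ACOT8 at 0.10. Leaving out 1 array moved ACADVL between -0.049 and 0.24, ACAD10 between -0.060 and 0.29 and ACADS between -0.29 and 1.57, the lowest being without high glucose replicate 1, high glucose replicate 2 and low glucose replicate 2. The cause was not tested.

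The labels do not say whether arrays with the same replicate number were grown or processed together. Same-numbered arrays had deviations from their group means that correlated with r = -0.0039 across genes. This single value cannot show that they were handled apart. With the replicate block 2959 genes were called higher and 4024 lower, 18 members rose and 3 fell.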
